A study of Homo sapiens
Mus musculus with 2 samples.

Results

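The genes of the mouse T cell receptor complex were followed across 2 Drop-seq libraries. The set was fixed by identifier and holds 7 genes, out of 29259 genes in the series and 14740 mouse genes. Of these, 4 were analysed: Cd3e (mm10_ENSMUSG00000032093), Cd3d (mm10_ENSMUSG00000032094), Cd3g (mm10_ENSMUSG00000002033) and Cd247 (mm10_ENSMUSG00000005763). The other 3, Trbc1 (mm10_ENSMUSG00000076490), Trbc2 (mm10_ENSMUSG00000076498) and Trac (mm10_ENSMUSG00000076928), were not analysed here. The genes are given by mouse Ensembl identifiers, and no coordinates or sequences were used.

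The T cell receptor is built in modules. An alpha and a beta chain, whose constant regions are encoded by Trac and by Trbc1 or Trbc2, recognize the antigen but have almost no signalling tail of their own. The chains CD3 epsilon, delta and gamma, encoded by the neighbouring genes Cd3e, Cd3d and Cd3g, pair as epsilon-delta and epsilon-gamma dimers, and the zeta chain, encoded by Cd247 at another locus, joins as a homodimer. Their cytoplasmic tails carry the tyrosine motifs that the kinase Lck phosphorylates and that Zap70 then binds. The CD3 chains mark cells of the T lineage, and B cells, which signal through an antigen receptor of their own, do not use them.

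Each library held a mixture, in equal parts, of 4 established lymphocyte lines obtained from a cell bank. These were Jurkat and TALL104, both human T cells, EL4, mouse T cells, and IVA12, mouse B cells. The labels name no treatment of the cells. The loading concentration was 150 cells per µl for 1 library (the 150 library) and 300 cells per µl for the other (the 300 library), and neither concentration has a replicate. In Drop-seq, single cells are caught in droplets with barcoded beads, and each captured mRNA carries a unique molecular identifier (UMI), so that PCR copies are counted once.

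The tables held 2398956 UMIs over 2000 barcodes in the 150 library and 8707135 UMIs over 4000 barcodes in the 300 library. A barcode with at least 1000 UMIs was taken as a cell, and as a mouse cell when at least 90% of its UMIs were from mouse genes. This gave 85 and 685 mouse cells, 87 and 318 human cells, and 18 and 121 mixed barcodes in the 150 and the 300 library. The libraries shared 1 barcode sequence, and 0 among cells. Mouse cells were clustered on mouse genes with the 7 receptor genes left out, and the 6 clusters were joined into 2 groups by the likeness of their profiles. The group with more CD3 UMIs, called Cd3-high here, held 50 and 388 cells with a median of 10882 and 7492 UMIs per cell. The other group, called Cd3-low, held 35 and 297 cells with a median of 13629 and 6581 UMIs. These names were given after the CD3 levels were seen. Mouse gene symbols were not matched for other genes, so the groups were not checked against other T or B cell markers and are not named after EL4 or IVA12. Each group had 1 shallow cluster, with a median of 1300 UMIs (48 cells, Cd3-high) and 1366 UMIs (81 cells, Cd3-low). Intervals below are exact 95% intervals, Poisson for counts and binomial (Clopper-Pearson) for shares, and cover counting error only.

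Transcripts of the complex were found in nearly every Cd3-high cell and in few other cells. At least 1 UMI of the 4 genes was present in 49 of 50 Cd3-high cells in the 150 library (98.0%, interval 89.4% to 99.9%) and in 371 of 388 in the 300 library (95.6%, 93.1% to 97.4%). In the Cd3-low group the shares were 5 of 35 cells (14.3%, 4.81% to 30.3%) and 41 of 297 cells (13.8%, 10.1% to 18.3%). Human cells, which lack the mouse genes and were of lower depth (medians of 6383 and 3714 UMIs), gave 8.05% and 6.60%. Within the Cd3-high group the detection fell in the order Cd3d, Cd3g, Cd3e and Cd247, with Cd3d and Cd3g level in the 150 library.

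Cd3d, the delta chain, was detected in 47 of 50 Cd3-high cells in the 150 library (94.0%, interval 83.5% to 98.7%) and in 361 of 388 in the 300 library (93.0%, 90% to 95.4%). Its count ran from 0 over a median of 7 to 19 UMIs per cell in the first, and from 0 over a median of 4 to 31 UMIs in the second. Cd3g, the gamma chain, was detected in 94.0% and 79.9% of Cd3-high cells, with medians of 3 and 2 UMIs and highest values of 12 and 17 UMIs. In the 300 library the quartiles were 2 and 7 UMIs for Cd3d and 1 and 3 UMIs for Cd3g.

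Cd3e, the epsilon chain, takes part in both CD3 dimers, yet it was detected in 21 of 50 Cd3-high cells (42.0%, 28.2% to 56.8%) and in 154 of 388 (39.7%, 34.8% to 44.8%), with at most 4 UMIs per cell. Cd247, the zeta chain, was detected in 14.0% and 14.9% of Cd3-high cells, with at most 2 and 3 UMIs. The median cell had 0 UMIs of either gene in both libraries.

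In the Cd3-low group Cd3d was detected in 11.4% and 6.40% of cells and Cd3g in 2.86% and 6.06%. Cd3e was found in 0 of 35 cells in the 150 library, where 3 cells of 35 would be a share of 8.57% and the exact upper bound is 10%, and in 1.01% in the 300 library. Cd247 was found in 2.86% and 2.36%. The median cell of this group had 0 UMIs of each of the 4 genes. The human cells showed Cd3d in 5.75% and 3.77% of cells, within the intervals of the Cd3-low shares of 3.2% to 26.7% in the 150 library and just below those of 3.90% to 9.81% in the 300 library.

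**Figure D1:**
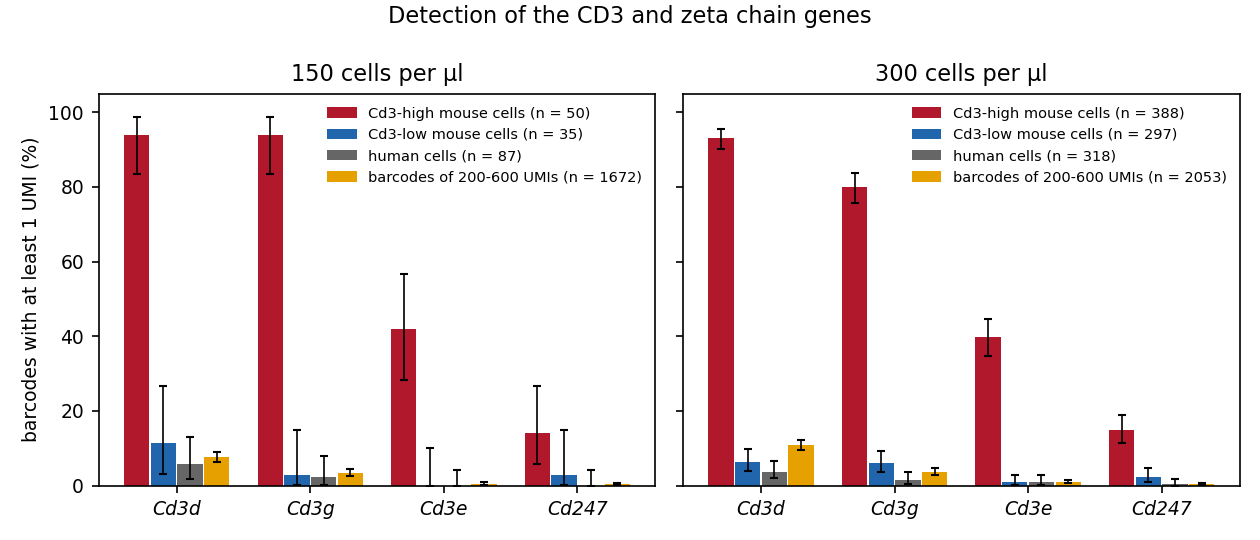
Share of barcodes with at least 1 UMI of each gene (vertical axis, percent) in the 2 libraries, for Cd3-high mouse cells, Cd3-low mouse cells, human cells and barcodes of 200 to 600 UMIs. Bars are shares and error bars are exact 95% binomial intervals. The Cd3-high bars stand above the 3 other kinds of barcode for every gene, from 94.0% for Cd3d to 14.0% for Cd247 in the 150 library, where the Cd247 interval overlaps that of the Cd3-low cells.

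The levels of the 4 genes in the Cd3-high group fell in the same order. These are UMIs of 3′ tags scaled to 1000000 mouse UMIs (CPM) and are not divided by transcript length, so the order is one of captured tags. Cd3d had 376 UMIs in the 150 library, or 627 CPM (565 to 694), and 2116 UMIs in the 300 library, or 666 CPM (637 to 695). Cd3g had 185 and 926 UMIs, or 308 CPM (266 to 356) and 291 CPM (273 to 311). Cd3e had 28 and 207 UMIs, or 46.7 CPM (31.0 to 67.5) and 65.1 CPM (56.5 to 74.6). Cd247 had 8 and 72 UMIs, or 13.3 CPM (5.76 to 26.3) and 22.6 CPM (17.7 to 28.5). Neighbours in the order did not overlap within either library. By summed UMIs Cd3d ranked 235 of 10276 mouse genes detected in the group in the 150 library and 210 of 12366 in the 300 library. Cd3g ranked 551 and 595, Cd3e 3599 and 3072, and Cd247 6628 and 5898.

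The ratio between the chains was similar in both libraries. Cd3d gave 2.03 UMIs for each UMI of Cd3g in the 150 library (1.70 to 2.44) and 2.29 in the 300 library (2.11 to 2.47). It gave 13.4 UMIs for each UMI of Cd3e (9.14 to 20.5) and 10.2 (8.86 to 11.8). Both pairs of intervals overlap. Among the clusters of the Cd3-high group with deeper cells, cluster 1 (117 cells) had 661 CPM of Cd3d and cluster 2 (273 cells) had 654, and Cd3g stood at 294 and 290. The shallow cluster of 48 cells had 831 CPM of Cd3d (626 to 1082) and 423 of Cd3g (281 to 611), but 0 UMIs of Cd3e and of Cd247.

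The mouse groups were compared to see how far the complex differs between them. All 4 genes were higher in the Cd3-high group, by about the same factor for the 3 CD3 chains and by less for the zeta chain. In the Cd3-low group Cd3d stood at 15.2 CPM in the 150 library (7 UMIs) and 19.3 in the 300 library (45 UMIs), so Cd3-high cells were 41.2-fold higher (19.8 to 103) and 34.6-fold higher (25.7 to 47.5). Cd3g stood at 2.17 CPM (1 UMI) and 10.7 CPM (25 UMIs), giving 142-fold (25.2 to 5639) and 27.2-fold (18.3 to 42.3). Cd3e had 0 UMIs in the Cd3-low group in the 150 library, and against a floor of 3 UMIs for that library its level in Cd3-high cells was at least 7.16-fold higher, a value that leaves out the counting error of its 28 UMIs. The exact interval of the ratio, which includes that error, has a lower bound of 5.45. In the 300 library it had 5 UMIs and was 30.4-fold higher in Cd3-high cells (12.8 to 94.7). Cd247 had 1 and 7 UMIs, with ratios of 6.14 (0.82 to 273) and 7.56 (3.49 to 19.5), so its interval in the 150 library includes no difference.

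Within the Cd3-low group the shallow cluster had the highest levels of the abundant chains. Its 81 cells stood at 132 CPM of Cd3d (84 to 199) and 69.1 CPM of Cd3g (35.7 to 121), with 0 UMIs of Cd3e and of Cd247. Of its 23 UMIs of Cd3d, 7 and 9 lay in 2 cells of 23232 and 25083 UMIs. Of its 12 UMIs of Cd3g, 5 and 2 lay in the same cells. The intervals do not allow for UMIs clumped in few cells. The deeper clusters, of 138 and 113 cells, stood at 12.3 and 9.0 CPM of Cd3d and at 3.70 and 8.0 CPM of Cd3g. Leaving out the shallow cluster also takes out the cells of 23232 and 25083 UMIs. The level of Cd3d in the 300 library then went from 19.3 to 10.1 CPM and that of Cd3g from 10.7 to 5.98 CPM.

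On the 4 sums of UMIs, 1 per library and group, edgeR's quasi-likelihood test with the library as a block and Benjamini-Hochberg adjustment called 5078 of 8931 mouse genes (56.9%), and 2601 genes (29.1%) were higher in the Cd3-high group. The 4 receptor genes were among the latter. Cd3-high was named as the group with the higher summed level of these 4 genes, so the direction of their sum was fixed by the name. The log2 fold change was 5.18 ± 0.17 (approximate SE) for Cd3d (adjusted p = 1.1e-194, edgeR), 5.03 ± 0.22 for Cd3g (adjusted p = 6.4e-112, edgeR) and 2.87 ± 0.51 for Cd247 (adjusted p = 6.1e-08, edgeR). For Cd3e it was 5.09 ± 0.41 (adjusted p = 5.4e-34, edgeR), a fitted value that depends on the prior count because 1 sum was 0. The median log2 fold change was 5.06 over the 4 genes and 0.03 over all genes tested. The groups come from the expression of other genes in the same cells, and each p-value rests on 2 libraries. Their labels give the same mixture of lines and do not say whether both came from 1 cell preparation. With only 4 sums, edgeR moderates the spread of each gene by that of all genes tested. The p-value thus measures only this moderated spread between the sums, which may be technical. Groups formed on a random part of the genes moved 8 and 41 cells of the libraries from Cd3-high to Cd3-low. This left 42 and 347 Cd3-high cells, beside 42 and 348 when the shallow clusters are left out. The shallow Cd3-high cluster held 8 and 40 cells, and its overlap with the moved cells was not examined. With these groups edgeR gave 4.11 for Cd3d and 3.86 for Cd3g, while it gave 5.14 for Cd3e and 2.92 for Cd247. DESeq2 called 3 of the 4 genes, and Cd247 was not among them (log2 fold change 2.82, adjusted p = 0.157, DESeq2).

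**Figure D2:**
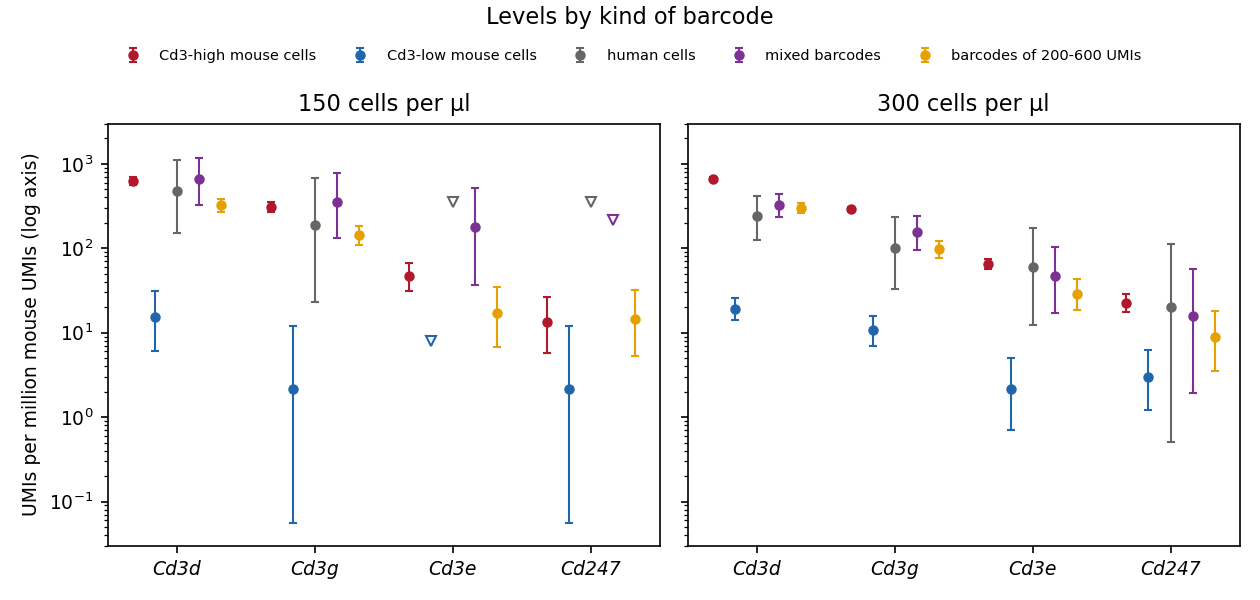
Level of each gene as CPM of mouse UMIs (vertical log axis) in 5 kinds of barcode, for each library. Points are summed levels, bars are exact 95% Poisson intervals, and open triangles mark the upper bound where the count is 0. For each gene detected in both mouse groups the Cd3-low points lie below the Cd3-high points, and wherever human cells, mixed barcodes and barcodes of 200 to 600 UMIs have a count above 0 their points lie above the Cd3-low points, with Cd3d at 472, 652 and 323 CPM in the 150 library.

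Detection followed the depth of the cell. Over both libraries, Cd3d was found in 62.3% of the 53 Cd3-high cells with 1000 to under 2000 UMIs, 90.1% of the 71 with 2000 to under 5000, 98.2% of the 169 with 5000 to under 10000 and 100% of the 145 with at least 10000. Poisson draws at the mean level of the group would give 58.6%, 89.9%, 98.9% and 100%. Cd3g went from 39.6% over 71.8% and 85.8% to 96.6%, beside 32.8%, 65.8%, 87.9% and 97.7% from Poisson draws. The Poisson shares lay within the exact intervals of the observed shares in all 4 ranges for both genes.

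Cd3e was found in 22.5%, 43.2% and 59.3% of the cells in the upper 3 ranges, beside 20.8%, 36.9% and 58.8% from Poisson draws. In the lowest range it was found in 0 of 53 cells, where 3 cells of 53 would be a share of 5.66% and the exact upper bound is 6.72%, both below the 8.12% from Poisson draws. Cd247 was also found in 0 of these 53 cells, beside 2.84% from Poisson draws, and reached 26.2% in the deepest range. For Cd3e the level was 0 CPM in the lowest range (upper bound 51.0) and 74.6, 67.4 and 59.7 CPM in the upper ranges. Cd3d had its highest value, 816 CPM (621 to 1053), in the lowest range.

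**Figure D3:**
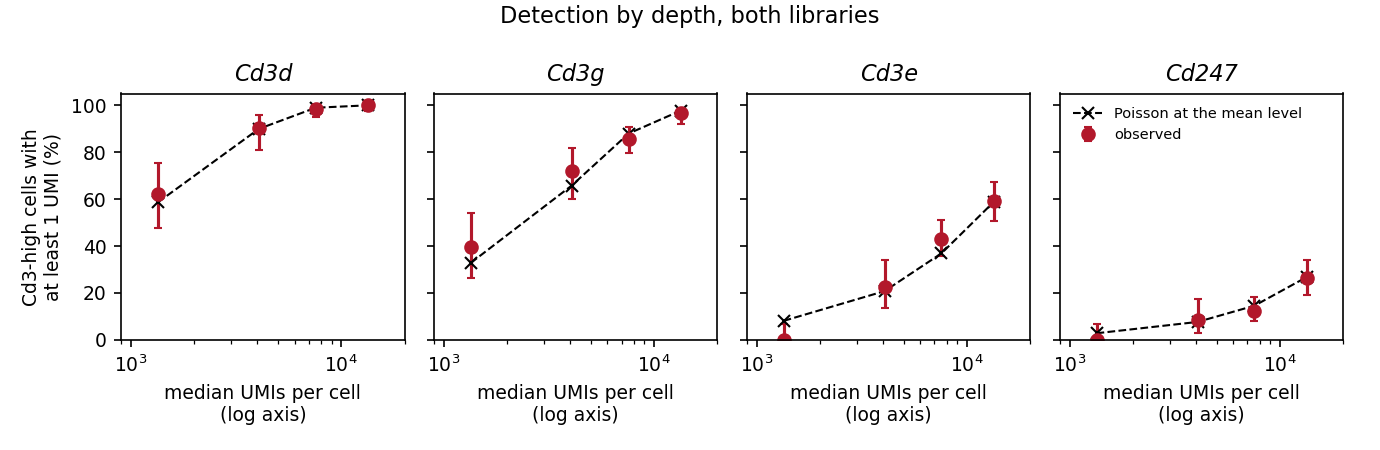
Share of Cd3-high cells with at least 1 UMI of each gene (vertical axis, percent) against the median UMIs per cell of 4 depth ranges (horizontal log axis), over both libraries. Red points are observed shares with exact 95% binomial intervals, and crosses joined by dashed lines are the shares that Poisson draws at the mean level of the group give. The points follow the dashed lines, except Cd3e in the shallowest range, where 0 of 53 cells had a UMI beside 8.12% from Poisson draws.

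Once each cell was thinned to 2000 UMIs, which leaves out 7 and 46 shallower Cd3-high cells and 5 and 63 Cd3-low cells, the shares fell in both groups and kept their order. Cd3d was then detected in 71.6% of Cd3-high cells in the 150 library and in 71.0% in the 300 library, against 2.19% and 1.99% of Cd3-low cells. Cd3g was detected in 49.0% and 43.7% of Cd3-high cells, so the gap of 94.0% to 79.9% between the libraries before thinning narrowed. Cd3e reached 8.21% and 12.7%, and Cd247 reached 2.83% and 4.53%. At this depth 86.7% of the 43 remaining Cd3-high cells in the 150 library kept a UMI of at least 1 of the 4 genes, against 2.59% of the 30 Cd3-low cells.

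The spread of counts between Cd3-high cells was compared with that of Poisson draws at each cell's depth. The Pearson dispersion, which is 1 for Poisson draws, was 2.69 for Cd3d in the 150 library and 1.41 in the 300 library. For Cd3g it was 1.07 and 1.32, for Cd3e 0.70 and 0.84, and for Cd247 0.84 and 1.08. In the 150 library 1 cell of 2837 mouse UMIs, with 12 UMIs of Cd3d where 1.78 were expected, accounted for 1.2 of the 2.69. Leaving out for each gene and library the cell that added most, a step chosen after the data were seen, gave 1.56 and 1.36 for Cd3d and 1.00 and 1.19 for Cd3g.

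Most Cd3-high cells held both of the abundant chains. Cd3d and Cd3g were both present in 45 of 50 Cd3-high cells in the 150 library (90%) and in 300 of 388 in the 300 library (77.3%). All 3 CD3 chains were present in 21 (42.0%) and 135 (34.8%) cells, and all 4 genes in 1 and 27 cells. The 135 cells had a median of 9693 UMIs, against 7492 in the whole group. No UMI of the 4 genes was found in 1 and 17 Cd3-high cells, where Poisson draws would leave 2.21 and 13.7 cells. Of those 17 cells, 11 had under 2000 UMIs.

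At 2000 UMIs per cell the 3 CD3 chains occurred together in pairs about as often as the product of their shares. The ratio of the observed share of Cd3-high cells with both Cd3d and Cd3g to that product was 1.02 in the 150 library and 1.01 in the 300 library. For Cd3e with Cd3d it was 0.98 and 1.03, and for Cd3e with Cd3g 0.97 and 0.95. The pairs with Cd247 rest on fewer cells. Cd3d with Cd247 gave 0.86 and 1.04, and Cd3g with Cd247 gave 0.98 and 1.06. Cd3e with Cd247 gave 0.48 and 0.89, and before thinning these cells held that pair in 1 cell of the 150 library and 29 cells of the 300 library. Before thinning, Spearman's rho of the shares of Cd3d and Cd3g in each cell's UMIs was 0.06 over 43 cells and 0.07 over 342 cells. It is given as a description over cells of the same library.

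**Figure D4:**
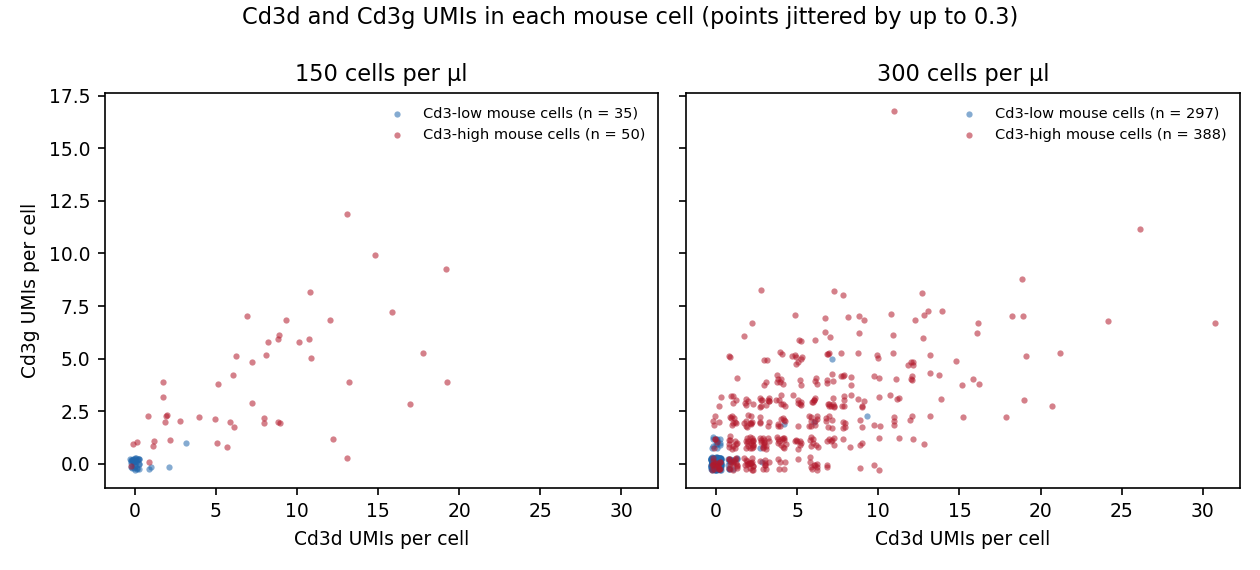
Cd3g UMIs (vertical axis) against Cd3d UMIs (horizontal axis) in every mouse cell of each library, with points jittered by up to 0.3 UMIs. Cd3-high cells are red and Cd3-low cells are blue. Cd3-high cells spread out to 31 UMIs of Cd3d and 17 of Cd3g, and most Cd3-low cells sit at 0 for both genes.

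The UMIs in the Cd3-low group were concentrated in few cells. In the 300 library, 34 of the 41 Cd3-low cells with any UMI of the complex had exactly 1, and 6 cells with at least 3 held 46 of the 82 UMIs (56.1%). These 6 cells had a median of 14758 UMIs, against 6581 in the whole group. The highest had 7 UMIs of Cd3d and 5 of Cd3g, and the next had 9 and 2. Both lay in the shallow cluster of the group, although they had 23232 and 25083 UMIs. In the 150 library, 1 cell with 3 UMIs of Cd3d and 1 of Cd3g, at a depth of 24450 UMIs, held 4 of the 9 UMIs. No doublet caller was run, and the part of droplets with 2 mouse cells in these values was not tested.

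In thinned Cd3-low cells in the 300 library, Cd3d and Cd3g occurred together 10.6 times as often as the product of their shares, which rests on 5 cells with both genes before thinning. In the 150 library the ratio was 10.3 and rests on 1 cell. Without the shallow clusters, a step chosen after the data were seen, the log2 fold change between the groups rose from 5.18 to 5.90 for Cd3d and from 5.03 to 5.79 for Cd3g, while it was 5.03 for Cd3e and 2.81 for Cd247, beside 5.09 and 2.87 with all clusters (edgeR). That step also takes out the Cd3-low cells of 23232 and 25083 UMIs.

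The libraries were compared within the Cd3-high group to see whether the loading concentration moved the complex. With 1 library per concentration this comparison has no test, and the concentration cannot be told apart from the library. The log2 ratio of levels in the 300 over the 150 library was 0.09 for Cd3d (interval −0.07 to 0.25), −0.08 for Cd3g (−0.31 to 0.15), 0.48 for Cd3e (−0.09 to 1.10) and 0.76 for Cd247 (−0.29 to 2.03). Every interval includes 0. Among 5472 mouse genes with at least 100 UMIs in this group, 205 (3.75%) differed by more than 2-fold and the median log2 ratio was 0.14. Of the receptor genes 3 reached 100 UMIs, and 0 of them differed by more than 2-fold. TMM scaling lowered all log2 ratios of the group by 0.12, which put Cd3d at −0.04.

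In the Cd3-low group the log2 ratio was 0.34 for Cd3d (−0.82 to 1.74), 2.3 for Cd3g (−0.31 to 7.66) and 0.46 for Cd247 (−2.50 to 5.96), and Cd3e was at 0 UMIs in the 150 library. Here 227 of 4605 genes (4.93%) differed by more than 2-fold, and no receptor gene reached the 100 UMIs needed to be counted. Without the shallow clusters, and so without the cells of 23232 and 25083 UMIs, Cd3d went from 0.34 to −0.63 in this group.

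**Figure D5:**
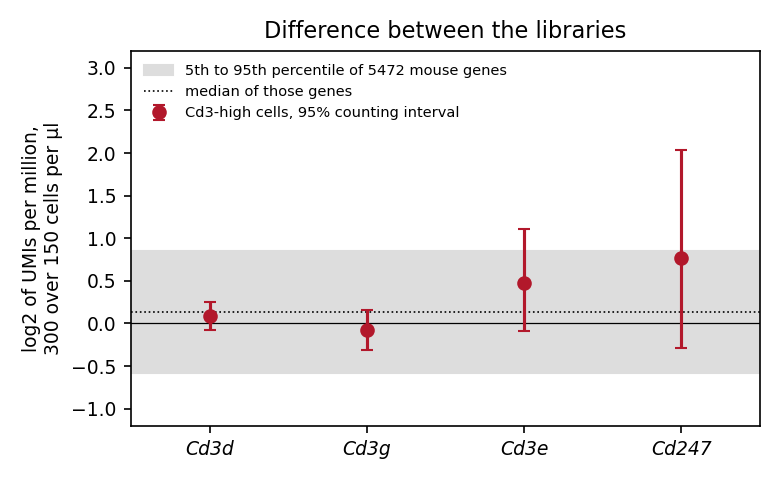
Log2 ratio of CPM in Cd3-high cells of the 300 over the 150 library (vertical axis) for each gene. Points carry 95% counting intervals (exact conditional binomial), the grey band is the 5th to 95th percentile of the 5472 genes with at least 100 UMIs and the dotted line their median of 0.14. All 4 intervals cross 0, and the points lie within the band. Cd247, on 8 and 72 UMIs, did not reach the 100 UMIs asked of the genes in the band.

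Mouse CD3 transcripts were also found in barcodes not counted as mouse cells. Those of 200 to 600 UMIs were taken by UMI number alone, so shallow mouse cells may be among them. Barcodes of 200 to 600 UMIs, 1672 and 2053 in number, held 133 and 238 UMIs of Cd3d, or 323 CPM in the 150 library (270 to 383) and 300.1 CPM in the 300 library (263 to 341). Relative to all mouse cells of the same library these are ratios of 0.89 (0.73 to 1.09) and 0.77 (0.67 to 0.88). Cd3g stood at 143 and 97.1 CPM, with ratios of 0.82 (0.60 to 1.10) and 0.56 (0.44 to 0.71). In the 150 library the intervals of both ratios include 1, and in the 300 library they lie below it.

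Human cells carried few mouse UMIs, with medians of 111 and 136.5 per cell. Per mouse UMI, their summed level of the 4 genes was 661 CPM (266 to 1361) in the 150 library and 420 CPM (260 to 642) in the 300 library. All mouse cells stood at 572 and 617 CPM. In the 150 library the human cells held 5 UMIs of Cd3d and 2 of Cd3g in 87 cells. In the 300 library they held 12 of Cd3d, 5 of Cd3g, 3 of Cd3e and 1 of Cd247 in 318 cells. At the level of the barcodes of 200 to 600 UMIs, their mouse UMIs would hold 3.42 and 15 UMIs of Cd3d. No human cell had more than 1 UMI of any of the 4 genes or of their sum, whereas 1 and 6 Cd3-low mouse cells had at least 3. Summed over the 4 genes, human cells held 0.08 UMIs per cell (0.032 to 0.17) and 0.066 (0.041 to 0.10), and Cd3-low cells held 0.26 (0.12 to 0.49) and 0.28 (0.22 to 0.34), a ratio of 3.2 (1.06 to 10.1) and 4.18 (2.56 to 7.11). The intervals do not allow for clumping, and 4 of the 9 and 46 of the 82 Cd3-low UMIs lay in 1 and 6 cells. Cd3-low cells were also deeper, with medians of 13629 and 6581 UMIs beside 6383 and 3714 in human cells.

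The proportion of the chains in barcodes not counted as mouse cells was compared with that in Cd3-high cells. In the 150 library the barcodes of 200 to 600 UMIs had 2.25 Cd3d UMIs for each of Cd3g (1.65 to 3.12), against 2.03 in Cd3-high cells. In the 300 library they had 3.09 (2.38 to 4.05), against 2.29 (2.11 to 2.47). All barcodes under 1000 UMIs, which include them, had 2.29 (1.70 to 3.10) in the 150 and 2.88 (2.36 to 3.53) in the 300 library. The difference from Cd3-high cells was not tested, and overlap of intervals does not show that the proportions are equal. Mixed barcodes had 1.83 in the 150 library, on 11 UMIs of Cd3d and 6 of Cd3g, and 2.05 in the 300 library, on 41 and 20. Human cells had 2.5 and 2.4, on no more than 12 UMIs of either gene.

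Of all UMIs of the 4 genes, Cd3-high cells held 597 of 865 in the 150 library (69.0%) and 3321 of 4059 in the 300 library (81.8%). Barcodes under 1000 UMIs held 26.8% and 13.9%, beside 30.3% and 18.4% of all mouse UMIs. Cd3-low cells held 1.04% and 2.02%, although they held 29.5% and 33.5% of the mouse UMIs. Mixed barcodes held 20 and 69 of these UMIs, and human cells held 7 and 21.

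The genes most like the complex were sought over the 649 mouse cells with at least 2000 UMIs, by Pearson's r between each of 10686 other genes and the sum of the 4 genes, both as log1p of UMIs per 10000. Cells of both groups enter this r, and they share their libraries and range of depths. The highest values were 0.89 for ENSMUSG00000068220 (0.94 and 0.89 within the libraries) and 0.88 for ENSMUSG00000030688 (0.89 and 0.88). The lowest were −0.88 for ENSMUSG00000024353 (−0.94 and −0.88) and −0.88 for ENSMUSG00000067149 (−0.93 and −0.87). Among the members, Cd3d had an r of 0.78 with the sum of the other 3 and Cd3g 0.72, while Cd3e had 0.43 and Cd247 0.19. Within the 385 Cd3-high cells of that depth the values were 0.15, 0.10, 0.03 and 0.01.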

How the data were processed

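The authors deposited whole-number UMI counts per gene and barcode, 1 table per Drop-seq library of the mixed cell lines. Per the labels and the study's methods, Drop-seq tools and the aligner STAR 2.4.2a were used, with a joint hg19 and mm10 reference. Reads were downsampled with seqtk, and the sources used here do not state whether the deposited counts come from the downsampled reads. The libraries held 2398956 and 8707135 UMIs, so low counts limit the precision.

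The receptor genes and all lists were chosen with earlier results of these data known. Mouse cells (at least 1000 UMIs, at least 90% mouse) were scaled to 10000 UMIs, log-transformed and reduced to 15 principal components of the 2000 most variable genes found in at least 10 cells, without the receptor genes. Leiden clusters (leidenalg 0.10.2, 15 neighbours, resolution 0.5) were joined into 2 groups by average linkage of their correlations. Sums per library and group were tested with edgeR 4.0.16 (R 4.3.3; filterByExpr, TMM, library as a block, threshold of 0.05). The SE of a fold change is approximate, from the fold change and its F statistic. DESeq2 1.42.0 was an alternative. Thinned shares are exact expectations of sampling each cell to 2000 UMIs. Values across libraries carry exact intervals and no test. The fits, the interval of a ratio, the thinning and the grouping were run on simulated data simpler than the real counts. Simulated cells were drawn from the summed profiles of the groups, and the simulated fits changed a small part of the genes, upward only. These runs check the code and do not show how the methods perform on the real cells. Genes named besides the receptor genes are the 2 identifiers most like and the 2 least like the summed complex by Pearson's r. The first of these were ranked by rule, and the least like were added afterwards. The planned lists of signalling genes and cell type markers needed gene symbols and were not applied here, as the table of gene names used held 0 of the mouse identifiers.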

Additional observations from a re-analysis of the deposited data

Results flagged for a closer look

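Cd3g differed in direction between the mouse groups when the libraries were compared. Its log2 ratio in the 300 over the 150 library was 2.3 in the Cd3-low group (interval −0.31 to 7.66, on 1 and 25 UMIs) and −0.08 in the Cd3-high group (−0.31 to 0.15, on 185 and 926 UMIs). Both intervals include 0, the difference between the groups was not tested, and each group has 1 library per concentration.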

How the results depend on the processing

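The call of the 4 receptor genes between the mouse groups held under each edgeR alternative run, and under DESeq2 for 3 of them. DESeq2 called 1728 genes in place of 5078 and gave Cd247 a log2 fold change of 2.82 (adjusted p = 0.157, DESeq2). Without the library block edgeR called 3491 genes, and the call of all 4 genes was unchanged. The adjusted p was then 2.4e-08 for Cd3d, 5.9e-08 for Cd3g, 1.4e-06 for Cd3e and 4.5e-04 for Cd247 (edgeR). From 1 library at a time the log2 ratio ran from 5.11 to 5.37 for Cd3d, from 4.77 to 7.15 for Cd3g and from 2.62 to 2.92 for Cd247. For Cd3e only the 300 library gave a value, 4.93. Grouping on a random part of the genes moved 8 and 41 cells from Cd3-high to Cd3-low. This lowered Cd3d to 4.11 and Cd3g to 3.86, while Cd3e was at 5.14 and Cd247 at 2.92.

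Detection in Cd3-high cells depended on depth, and shares are given here for the 150 and then the 300 library. Thinned to 2000 UMIs they were 71.6% and 71.0% for Cd3d, 49.0% and 43.7% for Cd3g, 8.21% and 12.7% for Cd3e and 2.83% and 4.53% for Cd247. Thinned to 1000 UMIs they were 47.6% and 47.8% for Cd3d, 32.2% and 25.6% for Cd3g, 3.58% and 5.76% for Cd3e and 1.22% and 2.04% for Cd247. With cells of at least 500 UMIs, Cd3g fell to 82.8% and 62.6%, and in the 300 library Cd3d fell to 76.8%, Cd3e to 30.5% and Cd247 to 11.1%. With at least 2000 UMIs Cd3d reached 100% and 97.1%, and in the 300 library Cd3g reached 86.0% and Cd3e 45.0%. Without the shallow clusters Cd3d reached 100% and 96.3%, and Cd3g 85.1% in the 300 library. With cells weighted equally the levels in the 150 library were 711 CPM for Cd3d and 373 for Cd3g. Among human cells of at least 95% human UMIs in the 300 library, Cd247 was at 0 CPM, since its single UMI lay in a cell below that limit. Under the other alternatives run, the values of detection, level and library difference stayed within the counting interval of the reported value. So did the levels in human cells and in barcodes of low UMI number. Thinned to 5000 UMIs, the coexpression ratios of the CD3 chains ran from 1.00 to 1.03, and that of Cd3e with Cd247 was 0.38 and 1.00.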
